A study of Arabidopsis thaliana with 3 samples.

Results

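The regions described here are the 483 LDL1:GFP regions whose midpoint lies on chromosome 1 of Arabidopsis thaliana from 13 Mb to below 17 Mb, out of 5928 regions on the 5 nuclear chromosomes. They were chosen by position alone, as the 4 bins of 1 Mb around the centromere of this chromosome that hold few genes. Chromatin came from Col-0 seedlings harvested at 14 days under long days at a fixed temperature, all carrying a fusion of LDL1 and green fluorescent protein expressed from the LDL1 promoter. The fusion was precipitated with an antibody against GFP in 2 libraries, labelled LDL1pro::LDL1:GFP_1 and LDL1pro::LDL1:GFP_2, and 1 library of the same line, labelled LDL1pro::LDL1:GFP_input, served as input. Each ChIP library was made from DNA of several pooled precipitations, and whether the plants also kept the native LDL1 gene is not stated. A library from plants without the fusion was not analysed here, so background of the antibody was not measured.

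LDL1 belongs to the plant relatives of the animal lysine-specific demethylase LSD1, which removes methyl groups from a lysine of the histone tail that is marked at active genes. Plant centromeres are built on long arrays of a tandem satellite repeat, most of which is missing from the reference assembly used here. On either side lies pericentromeric heterochromatin, which is compact, heavily methylated on DNA and rich in transposons, with few genes. Many transposon-derived loci are listed as pseudogenes in this annotation, so that class stands mostly for transposon remnants.

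All coordinates are 1-based on TAIR10. The authors deposited a single ChIP region set with no score, count or replicate, so no value below has a replicate error and the depth of the libraries is unknown. No test between groups was possible, and the comparisons are descriptions. Intervals in brackets are exact Clopper-Pearson 95% intervals. They cover counting error only, and neighbouring regions are not independent of each other. In the interval the annotation placed 230 protein-coding genes (57.5 per Mb), against 262 per Mb in the rest of chromosome 1, 462 pseudogenes and 71 genes of other RNAs. The position of the centromere itself is not part of the files. The first member lay at 13085362 to 13085692 (331 bp) and the last at 16868291 to 16868622 (332 bp). The nearest regions beyond the limits lay at 12930098 to 12930360 (263 bp) and 17139451 to 17139768 (318 bp), so no region lay close to either limit.

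The first question was how the regions were spread along the interval. They were concentrated on one side of its middle, in the 0.5 Mb from 15 to 15.5 Mb. This stretch, chosen after the density was seen, held 262 of the 483 regions (54.2%), with 150 regions between 13 and 15 Mb and 71 between 15.5 and 17 Mb. The density was 524 regions per Mb in the dense stretch, 63.1 per Mb in the rest of the interval and 18.8 per Mb in the rest of chromosome 1. Over the whole interval it was 121 per Mb, with 203.5 per Mb from 14 to 16 Mb and 71.5 per Mb for regions of at least 300 bp alone.

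By bins of 1 Mb, 47 regions lay at 13 to 14 Mb, 103 at 14 to 15 Mb, 304 at 15 to 16 Mb and 29 at 16 to 17 Mb. By bins of 100 kb, the increase on entering the dense stretch was abrupt. The bin at 14.9 to 15 Mb held 4 regions, the bin at 15 to 15.1 Mb held 22, and the bin at 15.1 to 15.2 Mb held 77, the highest count in the interval. The next bins held 65, 57 and 41 regions, and the bin at 15.5 to 15.6 Mb held 10. In all, 20 of the 40 bins held 5 or fewer regions and 3 held none.

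The bases under regions were also concentrated in the dense stretch, but within it they did not follow the counts. The bin at 15 to 15.1 Mb, with 22 regions, was covered over 28.7%. The bin at 15.3 to 15.4 Mb, with 57 regions, was covered over 21.7%. Regions covered 31.6% of the dense stretch and 2.51% of the rest of the interval. In the bin at 15.1 to 15.2 Mb they covered 65.5% of the sequence. A second, narrow rise in covered bases lay in a single bin of the right flank, where only 11 regions covered 17.4% of the bin. Across the 40 bins the number of regions ran against the share of protein-coding sequence (Spearman's rho of -0.64). It ran weakly with the shares of pseudogenes (rho of 0.38) and unannotated sequence (rho of 0.19), and input coverage gave a rho of -0.01. Neighbouring bins are not independent, so these values are descriptions.

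**Figure D1:**
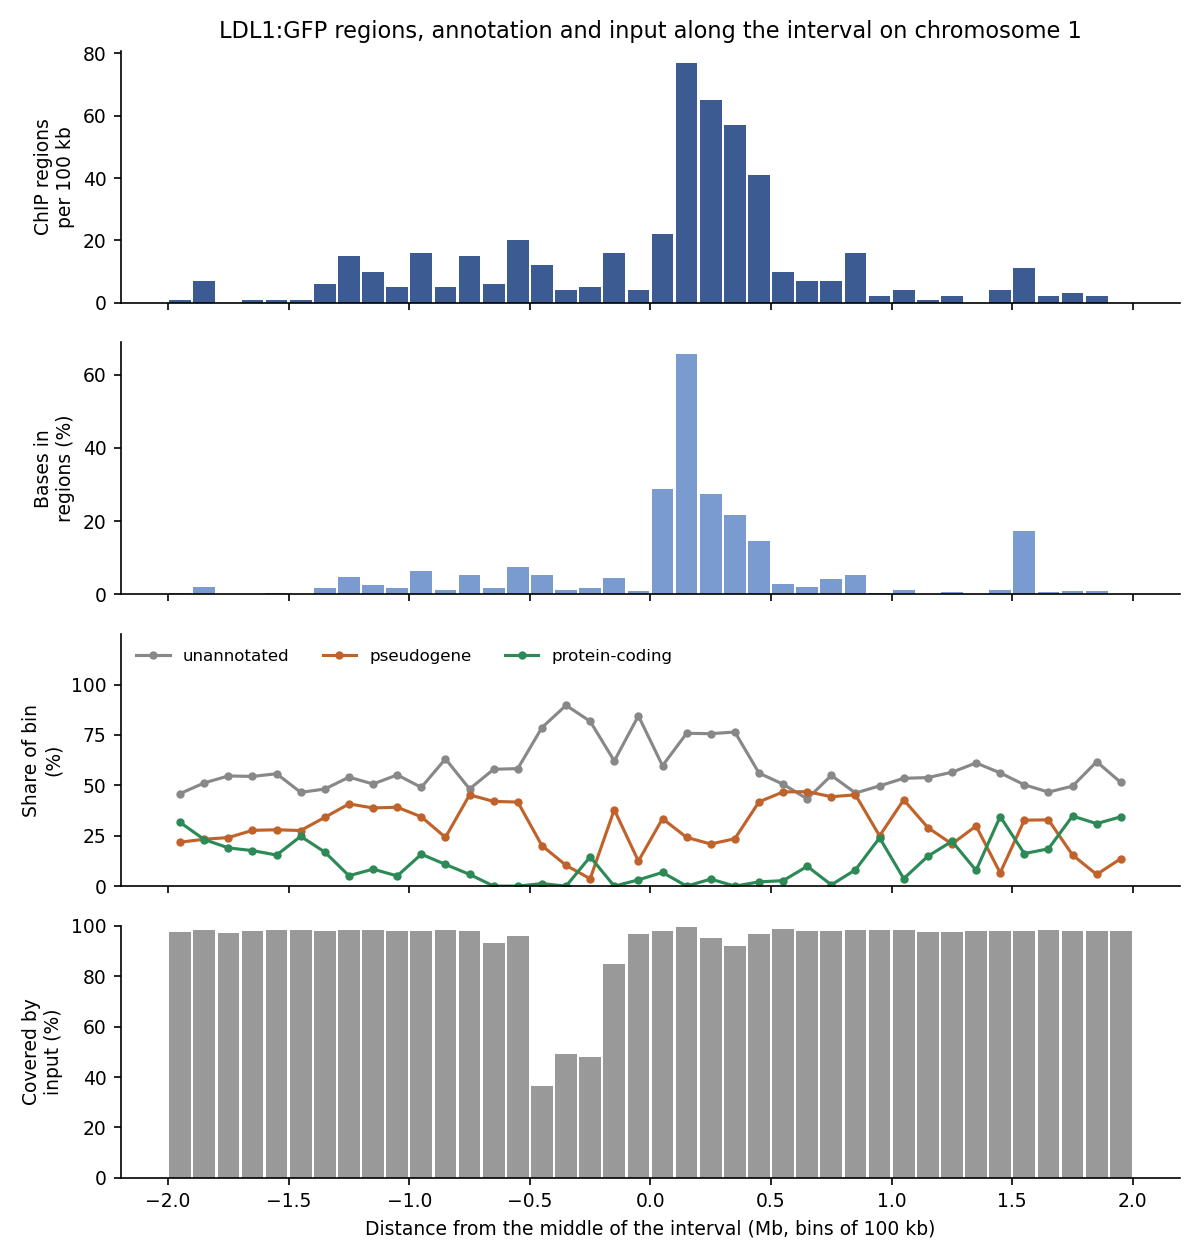
From top to bottom, the bars and lines give the ChIP regions per 100 kb, the share of bases in regions, the share of each bin in 3 annotation classes, and the share covered by input, by distance from the middle of the interval. Counts reach 77 just to the right of the middle, and the low input coverage of 3 bins lies to the left of it.

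Widths were small in most of the set and large in a few places. The median width was 329 bp (interquartile range 264 to 486 bp, range 151 to 5657 bp), and 334 of the 483 regions (69.2%) were 200 to 500 bp wide. Regions above 1 kb numbered 39, or 8.07% (interval 5.80 to 10.9%), and held 32.8% of the region bases. In the rest of chromosome 1 the median was 273 bp and 3 of 497 regions (0.604%, interval 0.125 to 1.75%) were above 1 kb. Of the 39 wide members, 31 lay in the dense stretch. The median width was 371 bp there, against 311 bp in the rest of the interval. Within the dense stretch, 15 to 15.25 Mb and 15.25 to 15.5 Mb held 131 regions each but differed in width. The first had 30 wide members and a median of 483 bp, the second 1 wide member and a median of 306 bp. Of the 8 wide members outside the dense stretch, 7 lay together in a block from 16509752 to 16528855.

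The 10 widest members held 14.97% of all member bases. The widest, 5657 bp at 15099652 to 15105308, overlapped no annotated gene. The same was true of the regions at 15129380 to 15133105 (3726 bp), 15096179 to 15099610 (3432 bp), 15093383 to 15096083 (2701 bp) and 15136177 to 15138734 (2558 bp). These 5 all lay within one 54.0 kb stretch that holds no annotation. On pseudogenes lay the second widest, 4840 bp at 15038249 to 15043088 on AT1G40093, and a region of 3033 bp at 15043772 to 15046804 on AT1G40095. Another pair lay at 16512940 to 16516848 (3909 bp, on AT1G43740 and AT1G43745) and 16516862 to 16519523 (2662 bp, on AT1G43745). The third widest, 4257 bp at 15081803 to 15086059, covered the whole of AT1G40104, the only protein-coding gene among the loci under these 10 regions.

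**Figure D2:**
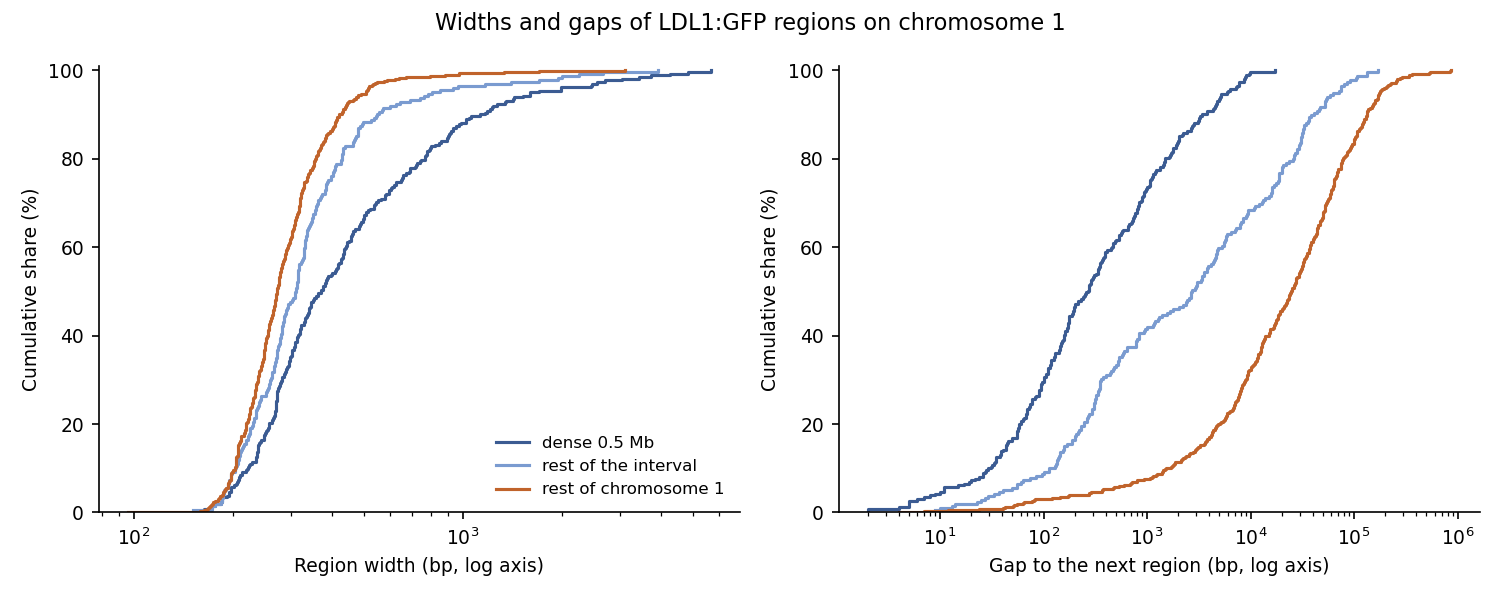
Cumulative shares of region widths (left) and of gaps to the next region (right), both on log axes, for the dense 0.5 Mb, the rest of the interval and the rest of chromosome 1. Widths in the dense stretch run past 5 kb, and its gaps are shorter throughout than those of the other parts.

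Regions lay close to one another. Among the 482 gaps between neighbouring members the median was 551 bp (interquartile range 138 to 4379 bp). In the dense stretch the median gap was 267 bp, against 2697 bp in the rest of the interval and 24.5 kb in the rest of chromosome 1. Gaps of at most 50 bp occurred 56 times and gaps of at most 200 bp 158 times, so many neighbours were separated by less than the median width. The deposited files do not give the rule by which close regions were kept apart. With regions at most 200 bp apart merged, the median gap was 1997 bp, and with only regions of at least 300 bp it was 831 bp.

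When regions at most 1 kb apart were joined, 372 of the 483 (77.0%) fell into 90 groups of 2 or more and 111 stood alone. In the rest of chromosome 1, 68 of 497 regions (13.7%) had a neighbour that close. Groups of 5 or more numbered 19 and held 189 regions. Their regions were wider than the others, with a median of 463 bp and 18.5% above 1 kb. Regions in groups of 2 to 4 had a median of 294 bp, with 1.64% above 1 kb. Regions that stood alone had a median of 302 bp, with 0.901% above 1 kb. None of the 189 regions in the large groups had its midpoint in a protein-coding gene, whereas 11 of the 111 lone regions did (9.91%). The large groups lay mostly in the dense stretch (152 of their 189 regions, against 29 of the 111 lone regions), where protein-coding genes made up 2.49% of input-covered bases, against 14.6% in the rest of the interval. Neither this contrast nor that in width can be told apart from position.

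The largest group had 44 regions over 53407 bp, at 15087781 to 15141187, and regions filled 86.8% of it. Its only annotated gene was the pseudogene AT1G40105 at the right end. Next came 3 groups of 15 regions each, at 15166459 to 15182401 (84.7% filled), 15188704 to 15201838 (67.5% filled) and 15257236 to 15267731 (61.1% filled). A further group of 8 regions at 15038249 to 15052850, over AT1G40093 and AT1G40095, was 94.4% filled.

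Long stretches of the interval held no region. Gaps over 50 kb numbered 19 and made up 40.7% of the interval. The longest, 171.9 kb from 16018838 to 16190724, was covered by input over 97.8% and contained 13 protein-coding genes. Others of 134.9 kb (13187029 to 13321935) and 134.5 kb (16297393 to 16431882) held 10 and 12 protein-coding genes and were likewise covered over 97.3% and 98.0%. One gap of 113.1 kb, at 14925108 to 15038248, ended directly at the first group within the dense stretch. It had 3 protein-coding genes, and input covered 98.0% of it. By contrast, input covered only 35.0% of the gap of 84.7 kb at 14723232 to 14807892, which takes in a long stretch without input.

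**Figure D3:**
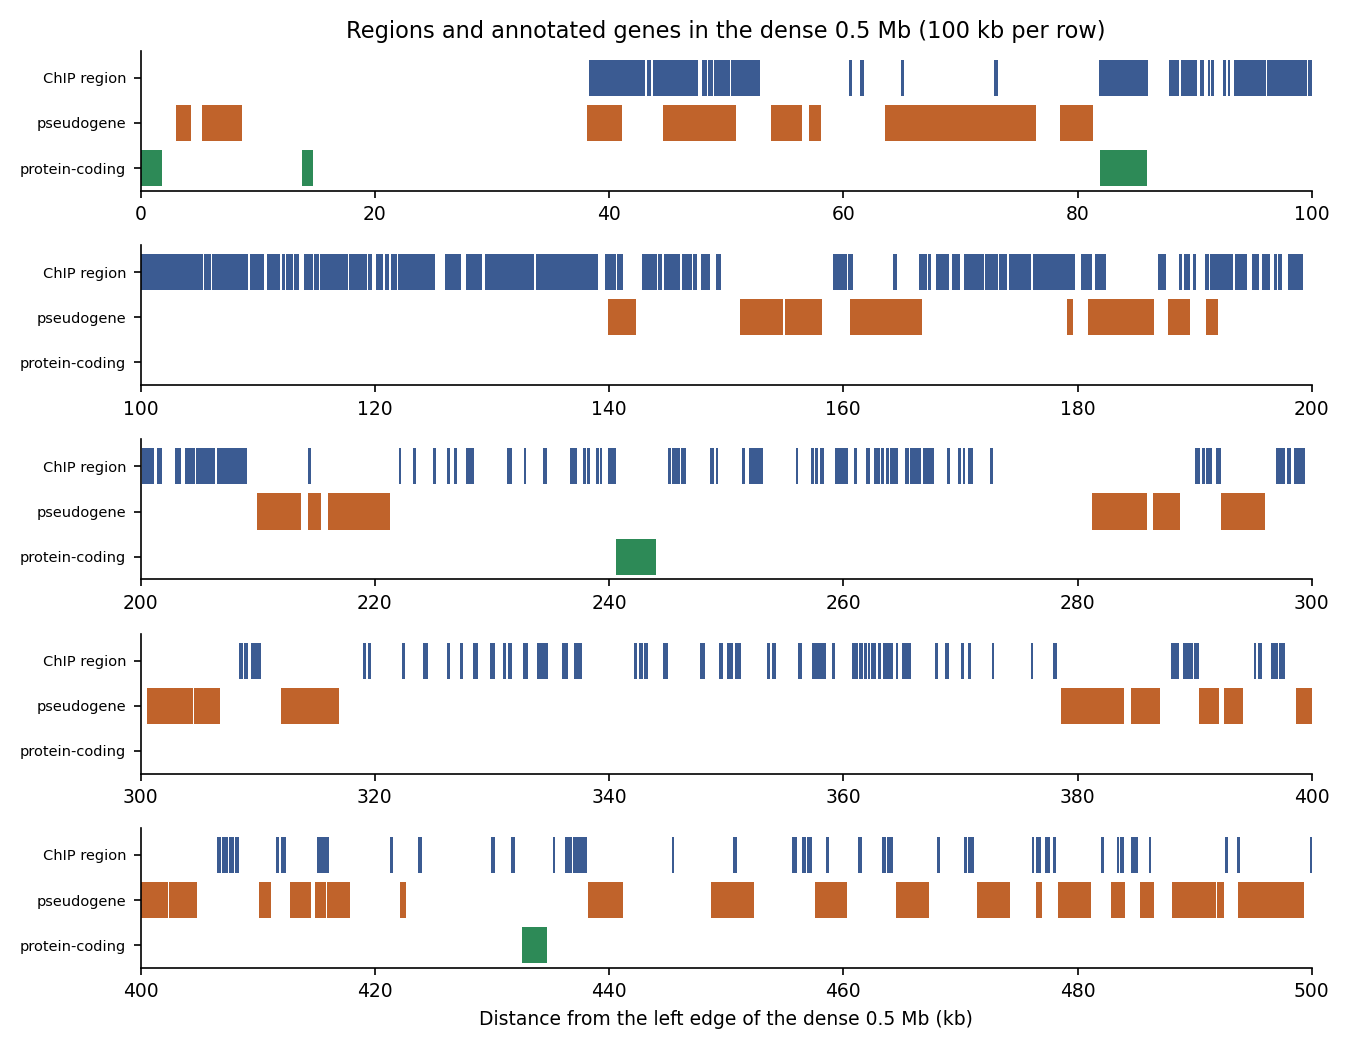
Map of the dense 0.5 Mb in 5 rows of 100 kb, with ChIP regions on the top line, pseudogenes on the middle line and protein-coding genes on the bottom line, by distance from its left edge. Regions fill the unannotated stretch in the first and second rows and lie mostly between pseudogenes, not on them.

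The next question was what sequence the regions occupied. Each midpoint was assigned to a protein-coding gene, else a pseudogene, else another RNA gene, else unannotated sequence. Unannotated sequence held 359 of the 483 midpoints (74.3%, interval 70.2 to 78.2%), against 55.9% of the bases that input covered in the interval. Pseudogenes held 106 midpoints (21.9%, interval 18.3 to 25.9%), against 30.3% of input-covered bases. Protein-coding genes held 15 (3.11%, interval 1.75 to 5.07%), against 13.1%. The remaining 3 midpoints lay in genes of other RNAs.

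This distribution came mainly from the dense stretch. There, 234 of 262 midpoints (89.3%, interval 84.9 to 92.8%) were in unannotated sequence, which made up 68.9% of input-covered bases. Pseudogenes held 27 (10.3%, interval 6.902 to 14.6%), against 28.6% of those bases. In the rest of the interval 56.6% of midpoints were unannotated (interval 49.7 to 63.2%), close to the 53.98% of input-covered bases, and 35.7% lay in pseudogenes (interval 29.4 to 42.4%) against 30.5%. Protein-coding genes there held 6.33% of midpoints (interval 3.51 to 10.4%) against 14.6% of input-covered bases. The share in pseudogenes was thus below the sequence share in the dense stretch and within the counting interval elsewhere in the interval.

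Of the unannotated sequence of the dense stretch, 65.7% lay in long blocks. Stretches of at least 10 kb with no gene of any class numbered 25 in the interval, and 7 of these lay in the dense stretch. Those 7 held 165 region midpoints in 226 kb, and 6 of the 7 held at least 1. The other 69 unannotated midpoints of the dense stretch lay in 118 kb of shorter stretches. Regions filled 84.1% of the stretch at 15085894 to 15139932 (54.0 kb, 42 midpoints) and 86.7% of that at 15166682 to 15179140 (12.5 kb, 12 midpoints). They filled 26.9% of the longest, at 15316915 to 15378554 (61.6 kb, 47 midpoints), and 30.8% of that at 15244037 to 15281235 (37.2 kb, 29 midpoints). The exception, at 15014765 to 15038152 (23.4 kb), held no region although input covered 98.7% of it.

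Elsewhere in the interval, stretches of this length held few regions where input covered most of them. The 18 outside the dense stretch held 14 midpoints in 3 of them, and 15 held none. Per Mb of input-covered sequence this was 52.0 midpoints, compared with 757 per Mb in the long stretches of the dense part. The dense part was chosen for its many regions, so a higher value there was set by that choice. Over all sequence, regions per input-covered Mb were 545 in the dense part and 68.0 in the rest of the interval. The 14 that input covered over at least 80% held 5 midpoints, all in 1 stretch, or 19.5 per Mb. The 4 that input covered less held 9 midpoints in only 12.1 kb of input-covered sequence, or 746 per Mb. Region bases in these 4, counted with or without input, came to 31.5% of that input-covered length. These 4 hold the input-free sequence described further on, and most of their length had no input. The longest unannotated stretch of the interval, 67.3 kb at 14932361 to 14999614, was covered by input over 97.8% and held no region. Among long unannotated stretches, the share of bases in regions thus ran from 0 to 86.7%.

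**Figure D4:**
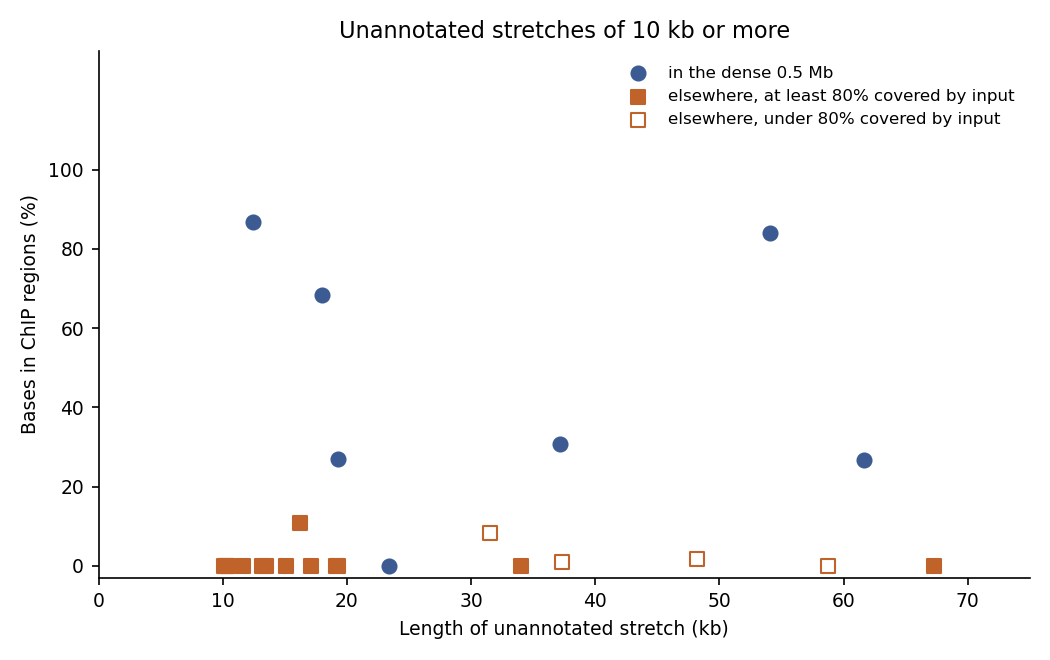
Share of bases in ChIP regions against length for the 25 unannotated stretches of at least 10 kb, in the dense 0.5 Mb (circles) and elsewhere (squares, open where input covered less than 80%). Shares are of the whole length, with or without input. Of the circles, 6 lie above 25% and 1 at 0, and the squares lie between 0 and 10.9%.

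Of the 462 pseudogenes, 71 (15.4%, interval 12.2 to 19.0%) were overlapped by a region by at least 1 bp. Over all nuclear pseudogenes the percentage overlapped was 21.0%, so the share over the whole interval was not above that background. That background includes the pseudogenes of this interval and of the other gene-poor bins. In the rest of chromosome 1, 23 of 468 were overlapped (4.91%, interval 3.14 to 7.28%), below the share in the interval. With only regions of at least 300 bp the share in the interval was 9.09%, and no background was computed with that filter. Within 1 kb of a region lay 137 (29.7%), beside 29.6% over all nuclear pseudogenes and 6.62% in the rest of chromosome 1. The 2 parts of the interval lay on either side of the background. In the dense stretch 18 of 49 were overlapped (36.7%, interval 23.4 to 51.7%). In the rest of the interval it was 53 of 413 (12.8%, interval 9.76 to 16.4%). The dense stretch was chosen for its many regions, so the high share overlapped there cannot be told apart from that choice. By midpoints, pseudogenes there held 10.3%, against 28.6% of input-covered bases. Of the 33 pseudogenes listed as transcribed 1 was overlapped, beside 7.99% of such pseudogenes over the nuclear chromosomes. Most overlaps were partial: 46 of the 71 carried 1 region, the median share of the body covered was 13.7%, and 13 were covered over 50% or more.

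A few pseudogenes were nearly filled. AT1G40095 (15044573 to 15050812, 6240 bp) had the most bases under regions, 5751 bp in 6 regions, or 92.2% of its length. AT1G40093 (15038153 to 15041098) was covered over 96.7% by 1 region. AT1G37060 (14084522 to 14090143, 5622 bp) carried 7 regions, the highest number on a pseudogene of the interval, over 50.9% of its length. AT1G43745 and AT1G43755 were covered over 99.5% and 96.3%. The regions on these loci came from 3 places: the first group of the dense stretch, the locus AT1G37060 to its left and the block from 16509752 to 16528855.

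The block on the right flank stood apart from its surroundings. Here 10 regions at 16509752 to 16528855 filled 89.9% of 19.1 kb, with 75.6 kb free of regions before the block and 55.2 kb after it. It ran over 4 neighbouring pseudogenes, of which AT1G43740 and AT1G43750 were covered completely. At its left end the first region overlapped the protein-coding gene AT1G43730 by 33 bp.

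Farther to the right in the dense stretch, regions recurred at like positions in a tandem array, which was examined after its values were seen. The pseudogenes AT1G41115, AT1G41600, AT1G41630 and AT1G41660 are 2808 to 2814 bp long and follow each other at steps of 6940, 6939 and 6941 bp. In each of the 4 units a region began a little over 1 kb before the pseudogene's start coordinate, at offsets of -1083, -1136, -1153 and -1115 bp. A region began 3480 to 3725 bp after that coordinate in 3 of the 4 units. Only AT1G41115 carried a region on its own body (323 bp). Reads from such copies can match more than 1 place, and how these were treated is not given in the sources used here.

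The share of protein-coding genes overlapped was near that over all nuclear chromosomes. Of the 230 in the interval, 16 (6.96%, interval 4.03 to 11.1%) were overlapped by at least 1 bp, beside 7.68% of all nuclear protein-coding genes. In the rest of chromosome 1, 379 of 6926 were overlapped (5.47%, interval 4.95 to 6.03%). The share in the interval depended on its limits: it was 15% from 14 to 16 Mb and 3.95% from 12 to 18 Mb. With only regions of at least 300 bp it was 3.91%, and no background was computed with that filter. With 1 kb added on either side the count was 22 (9.57%), beside 12.2% over all nuclear genes and 9.17% in the rest of chromosome 1. Overlaps were short, with a median of 11.2% of the gene body covered, and 2 genes were covered over 50% or more. One was AT1G40104, covered completely. The other was AT1G38790 (14543277 to 14544528), covered over 57.1% by 2 regions, and it lies just before a stretch of 36.0 kb without input. Of the 16, 5 have a gene symbol.

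NIA2 (14158452 to 14161938), a nitrate reductase that catalyses the first step of nitrate assimilation, carried 2 regions inside its body. They lay at 14160094 to 14160408 (315 bp) and 14160762 to 14160952 (191 bp). SEU (16616988 to 16622049), a transcriptional co-regulator of flower development, carried 1 region of 266 bp at 16620633 to 16620898. That region also overlapped the neighbouring gene AT1G43860 by 130 bp, and the bodies of these 2 genes overlap each other, so it cannot be assigned to either.

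The other named genes were auxin response factors, transcription factors that bind the promoters of auxin-regulated genes. ARF15 carried a region of 331 bp at 13085362 to 13085692, ARF14 a region of 351 bp at 13108777 to 13109127, and ARF23 a region of 383 bp at 16673448 to 16673830. They belong to a group of 8 closely related ARF genes on this chromosome, of which 3 lie in the interval. Of the 5 outside it, 3 carried a region. In all 6 genes the region lay 122 to 167 bp from one end of the annotated gene. The gene table used here gives no strand, so that end could not be named as a start or a stop. Because the copies are alike, reads may be shared among them, and the 6 regions are uncertain as separate sites.

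Of 13 genes with well known functions, listed whatever their result, NIA2 and SEU were overlapped and the other 11 had no region within 1 kb. With 7.68% of all nuclear protein-coding genes overlapped and 12.2% within 1 kb of a region, so small a count is not set apart from the background. NPQ4, the photosystem subunit needed for rapid photoprotection, lay 1.6 kb from the nearest region, the last member of the set. CINV1, a cytosolic invertase, lay 2.48 kb from one. ALDH3H1, an aldehyde dehydrogenase, lay 13.8 kb away, CH1, which makes chlorophyll b, 17.02 kb, and VIP1, a bZIP transcription factor, 23.4 kb. RP1, a ribosomal protein gene, lay 28.2 kb from a region, and the acetyl-CoA carboxylase genes ACC1 and ACC2 lay 31.4 and 44.2 kb away. CYCA1;1, an A-type cyclin, lay 34.95 kb, the annexin ANNAT1 38.1 kb and GAPB, a subunit of chloroplast glyceraldehyde phosphate dehydrogenase, 60.8 kb from the nearest region. The median over all protein-coding genes of the interval without a region was 16.53 kb.

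Of the 71 genes of other RNAs, 3 were overlapped (4.23%, interval 0.880 to 11.9%), beside a background of 6.43%. All 3 are long non-coding RNAs (AT1G06963, AT1G07017 and AT1G07117), of 51 in the interval. No region overlapped any of the 3 tRNA or 5 miRNA genes. The background was computed for these RNA classes together, and counts this small are not set apart from it.

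Input coverage was examined because a caller needs aligned reads. Input intervals, which mark sequence with at least 1 read and give no depth, covered 93.3% of the interval, against 98.8% of the rest of chromosome 1. Most of the difference lay in 4 stretches without any input, of 53.1 kb (14750934 to 14804030), 46.3 kb (14610669 to 14656946), 36.0 kb (14545716 to 14581712) and 27.0 kb (14511727 to 14538717). All 4 lay between 14.5 and 14.9 Mb, to the left of the dense stretch, and no region lay in them. Whether they are gaps of the assembly or sequence to which reads could not be assigned was not tested. Close beside them regions did occur, with 7 within 5 kb of the 27.0 kb stretch, 3 within 5 kb of the 36.0 kb stretch, 4 within 5 kb of the 46.3 kb stretch and 1 within 5 kb of the 53.1 kb stretch.

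Members were covered by input over 99.1% of their bases, and sequence outside regions over 97.1% when the 4 empty stretches were left out. Every member touched an input interval, and the least covered had 75.7% of its bases under input. Of the 483, 333 (68.9%, interval 64.6 to 73.0%) were covered over their whole length, compared with 85.5% (interval 82.1 to 88.5%) in the rest of chromosome 1, where regions were narrower. Members with whole coverage had a median width of 323 bp and the other 150 a median of 347 bp. In the dense stretch 65.3% were covered wholly. Because input intervals give presence only, a higher number of input reads over the dense stretch could not be measured. The part of sequence copy number in the density was not tested.

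Gene-poor bins of the other 4 chromosomes, defined by fewer than 150 protein-coding genes per 1 Mb, were set beside the interval. On chromosome 2 the bin at 3 to 4 Mb was left out, since it carries a large insertion of mitochondrial DNA. The sets differ in gene density, with 91.75, 65.2, 79.25 and 51.75 protein-coding genes per Mb on chromosomes 2 to 5, against 57.5. The chromosome 2 set includes a bin at 6 to 7 Mb with 148 such genes and 13 regions. The part of gene density in the values below was not tested. Each chromosome gives 1 value, so no test of a difference was made. Density was 121 regions per Mb in the chromosome 1 interval, against 139.8, 100.4, 209 and 159 per Mb on chromosomes 2, 3, 4 and 5. The median gap was 551 bp, against 2141, 861, 1132.5 and 381 bp. The share of regions in groups of 2 or more was 77.0%, against 49.6, 63.5, 64.1 and 76.0%. The share in the densest 0.5 Mb was 54.2%, against 25.4, 41.6, 30.9 and 47.4%, over 4 Mb of bins on each chromosome but 5 Mb on chromosome 3. Chromosome 1 had the highest value in both shares, with chromosome 5 next, whereas the median gap was shortest on chromosome 5. For the grouped share, the counting interval on chromosome 1 (73.0 to 80.7%) took in the value of chromosome 5. As a count, the densest 0.5 Mb held 262 regions on chromosome 1, against 142, 209, 258 and 302 on chromosomes 2 to 5. Wide regions above 1 kb made up 8.07% of the chromosome 1 members, against 2.15, 11.8, 3.35 and 12.6%. Chromosome 1 thus lay between the other chromosomes in width. It also lay between them in the share of regions covered wholly by input, with 68.9%, against 73.9, 63.1, 74.6 and 65.8%.

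The annotation under the regions divided the chromosomes differently. Unannotated sequence held 74.3% of midpoints in the chromosome 1 interval, against 60.4% on chromosome 3 and 64.4% on chromosome 5, and in each of these 3 sets this was above the share of input-covered bases (55.9, 49.5 and 51.1%). On chromosomes 2 and 4 it held 33.6% and 41.3%, below the input-covered shares of 48.3 and 49.4%. Pseudogenes there held 52.1% and 52.2% of midpoints, against 33.4 and 32.9% of input-covered bases. On chromosomes 1, 3 and 5 pseudogenes held 21.9, 35.1 and 31.1% of midpoints, against 30.3, 37.4 and 37.0% of input-covered bases. As a count of genes, 15.4% of pseudogenes were overlapped in the chromosome 1 interval, against 34.0, 15.5, 43.7 and 22.8% on chromosomes 2 to 5. Protein-coding genes were overlapped in 6.96% of cases, against 19.1, 7.06, 13.2 and 11.6%.

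**Figure D5:**
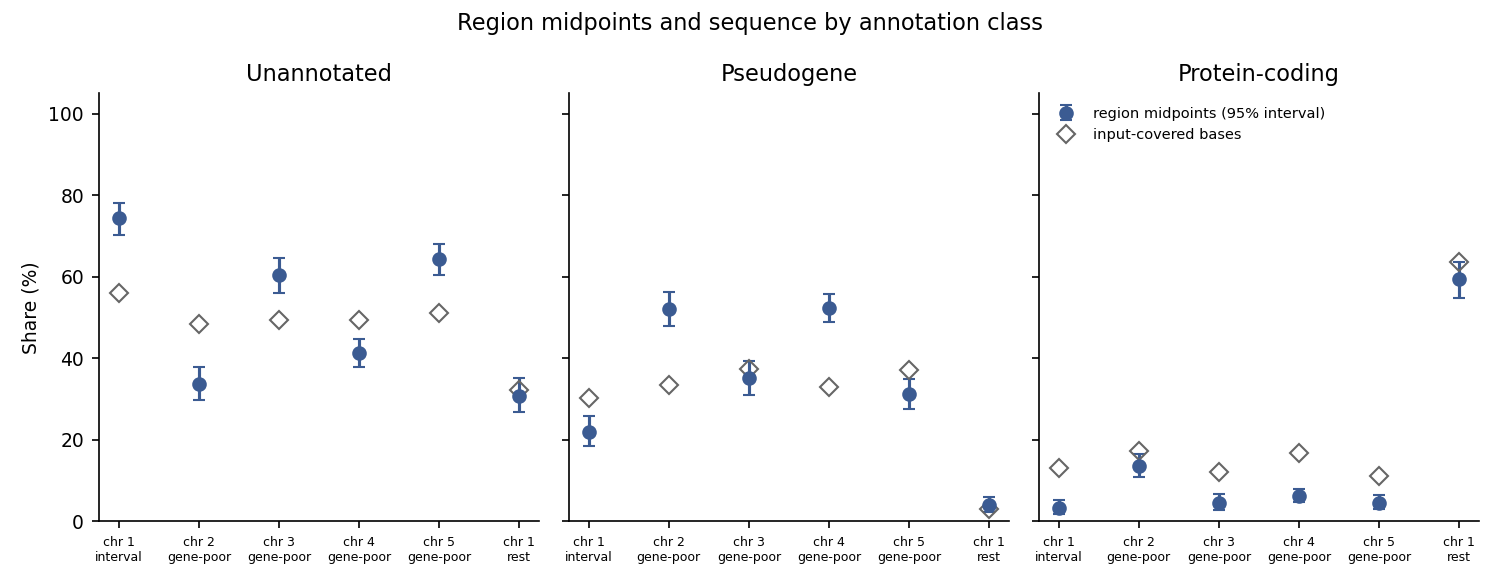
Shares of region midpoints (circles, with exact 95% intervals for counting error) and of input-covered bases (diamonds) in 3 annotation classes, for the chromosome 1 interval, the gene-poor bins of chromosomes 2 to 5 and the rest of chromosome 1. Beyond the counting interval, circles lie above diamonds for unannotated sequence in the chromosome 1 interval and on chromosomes 3 and 5, and for pseudogenes on chromosomes 2 and 4. In the rest of chromosome 1 the diamonds of these 2 classes lie within the intervals.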

How the data were processed

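Chromatin immunoprecipitation with sequencing was done in 2 ChIP libraries and 1 input library, grouped by sample titles. The authors deposited start and end coordinates of regions for the ChIP group and of intervals for the input, with no score or count. Per the submitters' processing notes, Bowtie, SICER and the build TAIR10 were used, without version or role. How reads with several matches were treated, the threshold for a region and how replicates were combined: each is not stated in the sources used here. Per the file values, the commonest input interval width was 51 bp, so the input behaves as merged reads.

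The deposited starts were read as counting from 0. RefSeq's table of 37899 nuclear genes (assembly TAIR10.1, with the nuclear chromosomes of TAIR10) supplied the names, positions and biotypes of genes. It gives no strand, exon or transposon family, so the planned grouping of pseudogenes by family was not made, and genome sequence was not used here. Pseudogenes include those listed as transcribed. A gene belongs to the interval by its midpoint. A gene or pseudogene was called overlapped when at least 1 bp of its body lay in a region.

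The members and lists were chosen with earlier results of these data known. Named genes are the genes under the 10 widest members, overlapped protein-coding genes with a symbol, 13 listed genes and the 5 pseudogenes with most bases under regions. Further loci in the text were named after their values were seen, as were the dense stretch and the class of unannotated stretches of 10 kb or more. The alternatives are given in the closing section. Interval arithmetic was tested on simulated data and equalled a count by brute force in 50 of 50 sets. Software was Python 3.11.15, with scipy 1.17.1 for intervals, pandas 2.3.3 and numpy 2.4.6 for tables and matplotlib 3.10.9 for plots.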

Additional observations from a re-analysis of the deposited data

How the results depend on the processing

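Of 49 alternative values, 24 kept within the counting interval of the reported value (for densities, within 1.5 times). With only regions of at least 300 bp, the median of the whole set, density was 71.5 per Mb, median width 440 bp, the median gap 831 bp and the grouped share 68.9%. Overlapped pseudogenes were then 9.09% and protein-coding genes 3.91%. From 12 to 18 Mb, protein-coding genes overlapped were 3.95%. From 14 to 16 Mb, density was 203.5 per Mb, the grouped share 81.8%, pseudogenes 20.4%, protein-coding genes 15% and unannotated midpoints 79.1%. With regions at most 200 bp apart merged, median width was 351 bp, the median gap 1997 bp, the grouped share 59.4%, whole input coverage 63.1% and unannotated midpoints 69.5%. Without the dense 0.5 Mb, an alternative chosen after seeing the data, density was 63.1 per Mb, median width 311 bp, the median gap 2697 bp, the grouped share 62.9%, whole input coverage 73.3% and unannotated midpoints 56.6%. A largest gap of 500 bp or 5 kb within a group gave grouped shares of 66.7% and 89.4%. For changes other than those set by fewer, merged or relocated regions the cause was not tested.

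No paired analysis was possible because the region set is not separated by replicate, and for the same reason none was left out. Depth is unknown, so a stretch without regions is not shown to lack LDL1. Region width is the only size a region has.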
